A study of Mus musculus with 4 samples.

Results

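The mRNAs of 9 genes that make and repair the programmed DNA breaks of meiosis were followed in single germ cells of mouse testicular organoids (TOs) and of mouse testes. Each gene was matched by symbol to the gene table of the deposited matrices, which lists 32285 genes, and all 9 were found. They are Spo11 and Prdm9, which make and place the breaks, Meiob, Spata22 and Dmc1, which coat the broken ends and carry out strand exchange, Msh4, Msh5 and Hfm1, which act on crossover intermediates, and Mlh3, which acts when crossovers are resolved.

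In meiosis, breaks are cut by the SPO11 protein at sites that PRDM9 marks by methylating histones. The ends are resected, the exposed strands are bound by proteins that include the MEIOB and SPATA22 pair, and the recombinase DMC1 searches the homologous chromosome for a matching sequence. In the mouse, breaks form in leptotene, pairing is completed by the end of zygotene, and a minority of the repair sites, stabilised by MSH4 and MSH5 and later bound by MLH3, become crossovers in pachytene.

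The study compared 2 TO libraries with 2 testis libraries, made from unsorted cells with the 10x Genomics droplet kit, which counts unique molecular identifiers (UMIs) near the 3′ end of mRNAs. TOs were built by letting dissociated testicular cells of neonatal ICR pups aggregate in microwells. The spheroids were embedded in basement membrane extract and cultured on inserts at the air–liquid interface. The study's TO medium held follicle-stimulating hormone, testosterone and antioxidants. The labels name no genetic change or drug treatment. The series' design text gives both the TOs and the testes an age of 28 days, while the dissociation protocol names day 21 for the TOs. The study's methods name day 28 for the TOs, the time used here. For TOs this counts days of culture, whereas for testes it is the age of the mice. The study gives its organoid libraries as separate batches and its testes as biological replicates, without tying them to the numbered libraries, and the p-values below measure the spread between these libraries.

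Filtering left 9763 and 8754 TO cells and 9900 and 9530 testis cells, and a cell held 6611 and 8194 UMIs on average in TOs against 4533 and 4823 in testes. Library pairs shared 30 to 55 cell barcodes. Germ cells numbered 960 and 681 in TOs and 7227 and 7999 in testes. They were matched to 8 states found by clustering testis germ cells without the 9 recombination genes and named by markers that exclude them. States 1 and 2 resembled undifferentiated and differentiating spermatogonia, state 4 leptotene and zygotene spermatocytes, state 5 pachytene spermatocytes, state 6 diplotene and dividing spermatocytes, and states 7 and 8 round and elongating spermatids. State 3 scored highest for leptotene and zygotene markers, but its 10 leading genes held a marker of differentiating spermatogonia, Stra8, and none of its own list, so it is called by its number. State 3 held 172 and 292 TO cells and 249 and 176 testis cells, and state 4 held 39 and 19 TO cells and 76 and 188 testis cells. With all cells clustered together, the clusters that scored highest for leptotene and zygotene markers were split by group. The larger held 425 and 386 TO cells and 20 and 8 testis cells, and the smaller 2 and 1 and 295 and 366. With germ cells alone, the larger such cluster held 210 and 265 TO cells and 283 and 186 testis cells. The testis replicates themselves differed in makeup, with 374 and 2869 elongating spermatid-like cells. Every germ cell took its best matching testis cluster, with no minimum fit, so cells that resembled no cluster well were not set aside. Those matched to clusters left without a name made up 5.21% and 3.82% of the TO germ cells. In testes they made up 26.8% and 20.5%.

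The 8 leptotene and zygotene markers (Meioc, Smc1b, Hormad1, Stag3, Sycp1, Sycp2, Sycp3, Rad21l) were all detected in state 3 and in state 4 of every library. Their summed level in state 3 was 7974 and 9131 counts per 1000000 UMIs (CPM) in TOs and 5228 and 7685 CPM in testes, against 22.2 to 282 CPM in somatic cells. With states 3 and 4 summed, 0 of these 8 markers passed the thresholds used below. RNA of other cells was present in these sums. The 6 elongating spermatid markers together stood at 0.822 and 3.07 CPM in state 3 of TOs and at 3046 and 5345 CPM in state 3 of testes, close to their 3068 and 5970 CPM in testis somatic cells. Conversely, 6 Sertoli cell markers summed to 323 and 126 CPM in state 3 of TOs, with 5 of 6 detected, and to 29.6 and 19.6 CPM in testes. In state 4 they summed to 521 and 93.1 CPM in TOs and to 65.6 and 27.2 CPM in testes. The 39 state 4 cells of TO replicate 1 thus held the most of this RNA, and their TO levels carry that limit. With the somatic profile of each library subtracted from its germ cell sums, 0 of 4951 genes passed in edgeR in state 3. At an unadjusted p under 0.05 stood 726 of them. In state 4, 0 of 2831 passed, with 215 at an unadjusted p under 0.05. Without subtraction 9672 and 5265 genes were tested. The profile was scaled by elongating spermatid markers in testes (factors of 0.993 and 0.895 in state 3) and left unscaled in TOs. It also holds the somatic cells' own RNA. These counts therefore cannot show the part of RNA of other cells in each result, which was not tested.

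Promoters were examined because most of the 9 genes changed level together at meiotic entry. RefSeq windows from 250 bases before to 50 after the gene start were at hand for 7 of them (Prdm9, Dmc1, Spata22, Msh4, Msh5, Hfm1 and Mlh3; GRCm38.p6). Only the 250 bases before the start were searched for motifs. The motif CNCCTCAG, reported for the meiotic initiators STRA8 and MEIOSIN, was present on either strand in 3 of these 7 genes and in 7.39% of 27025 genes. The E2F motif TCCCGC was present in 4 of 7 and in 18.8% of genes, and the E-box CACGTG in 0 of 7 and in 6.86%. The windows with the first motif are shown with the match in capitals, 120 bases long, read toward the gene start, and the Dmc1 window with the E2F match in capitals.
Prdm9, chr17:15564355-15564474, minus strand: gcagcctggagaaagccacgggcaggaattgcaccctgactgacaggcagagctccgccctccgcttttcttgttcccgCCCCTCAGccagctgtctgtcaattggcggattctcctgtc
Msh5, chr17:35046623-35046742, minus strand: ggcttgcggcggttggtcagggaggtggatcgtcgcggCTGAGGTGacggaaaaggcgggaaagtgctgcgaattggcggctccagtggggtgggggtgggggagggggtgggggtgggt
Hfm1, chr5:106925891-106926010, minus strand: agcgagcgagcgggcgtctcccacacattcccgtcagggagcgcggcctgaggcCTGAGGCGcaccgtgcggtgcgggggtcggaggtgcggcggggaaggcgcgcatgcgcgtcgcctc
Dmc1, chr15:79605110-79605229, minus strand: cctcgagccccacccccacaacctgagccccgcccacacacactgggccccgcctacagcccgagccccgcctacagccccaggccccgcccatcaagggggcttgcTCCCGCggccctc
The matches began 41 bases before the start in Prdm9, 82 in Msh5, 66 in Hfm1 and 13 in Dmc1, and in Msh5 and Hfm1 they lay on the opposite strand. In Prdm9 an E2F match began at 46 and overlapped the shown match by its last base. Distances count from the RefSeq starts, which for Msh5 (35046622) and Hfm1 (106925890) lie inside the gene spans given below from another annotation. These are matches of letters, and of a wider list of recombination genes described below 2 of the 36 with a window held the first motif.

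All 9 genes were detected in state 3 and in state 4 of every library. The levels below are CPM of the summed cells, replicate 1 before replicate 2. Spo11 (ENSMUSG00000005883, chromosome 2, 172977700 to 172993576, mm10), the enzyme that cuts the breaks, was at 54.2 and 57.6 CPM in state 3 of TOs and at 37.0 and 71.8 CPM in state 3 of testes. In state 4 it was at 74.4 and 81.5 CPM in TOs and at 100.1 and 83.5 CPM in testes. The TO values lay inside the testis range in state 3 and below both testis libraries in state 4. The log2 fold changes were 0.02 ± 0.307 and -0.27 ± 0.357 (TO over testis, ± SE). The state 4 order rests on few UMIs, since the TO sums of 39 and 19 cells held 188179 and 171874 UMIs of all genes. There 81.5 CPM in TO replicate 2 was close to 83.5 CPM in testis replicate 2. Somatic cells held 1.04 and 0.410 CPM of Spo11 in TOs and 5.89 and 4.71 CPM in testes.

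Prdm9 (ENSMUSG00000051977, chromosome 17, 15543079 to 15564354), the histone methyltransferase that places breaks, was at 242 and 266 CPM in state 3 of TOs and at 155.5 and 201 CPM in state 3 of testes. In state 4 it stood at 10.6 and 23.3 CPM in TOs and at 20.7 and 10.7 CPM in testes, on 2, 4, 6 and 11 UMIs. Both TO libraries were above both testis libraries in state 3, and the groups overlapped in state 4. The log2 fold change in state 3 was 0.47 ± 0.192 (edgeR adjusted p = 0.132).

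**Figure D1:**
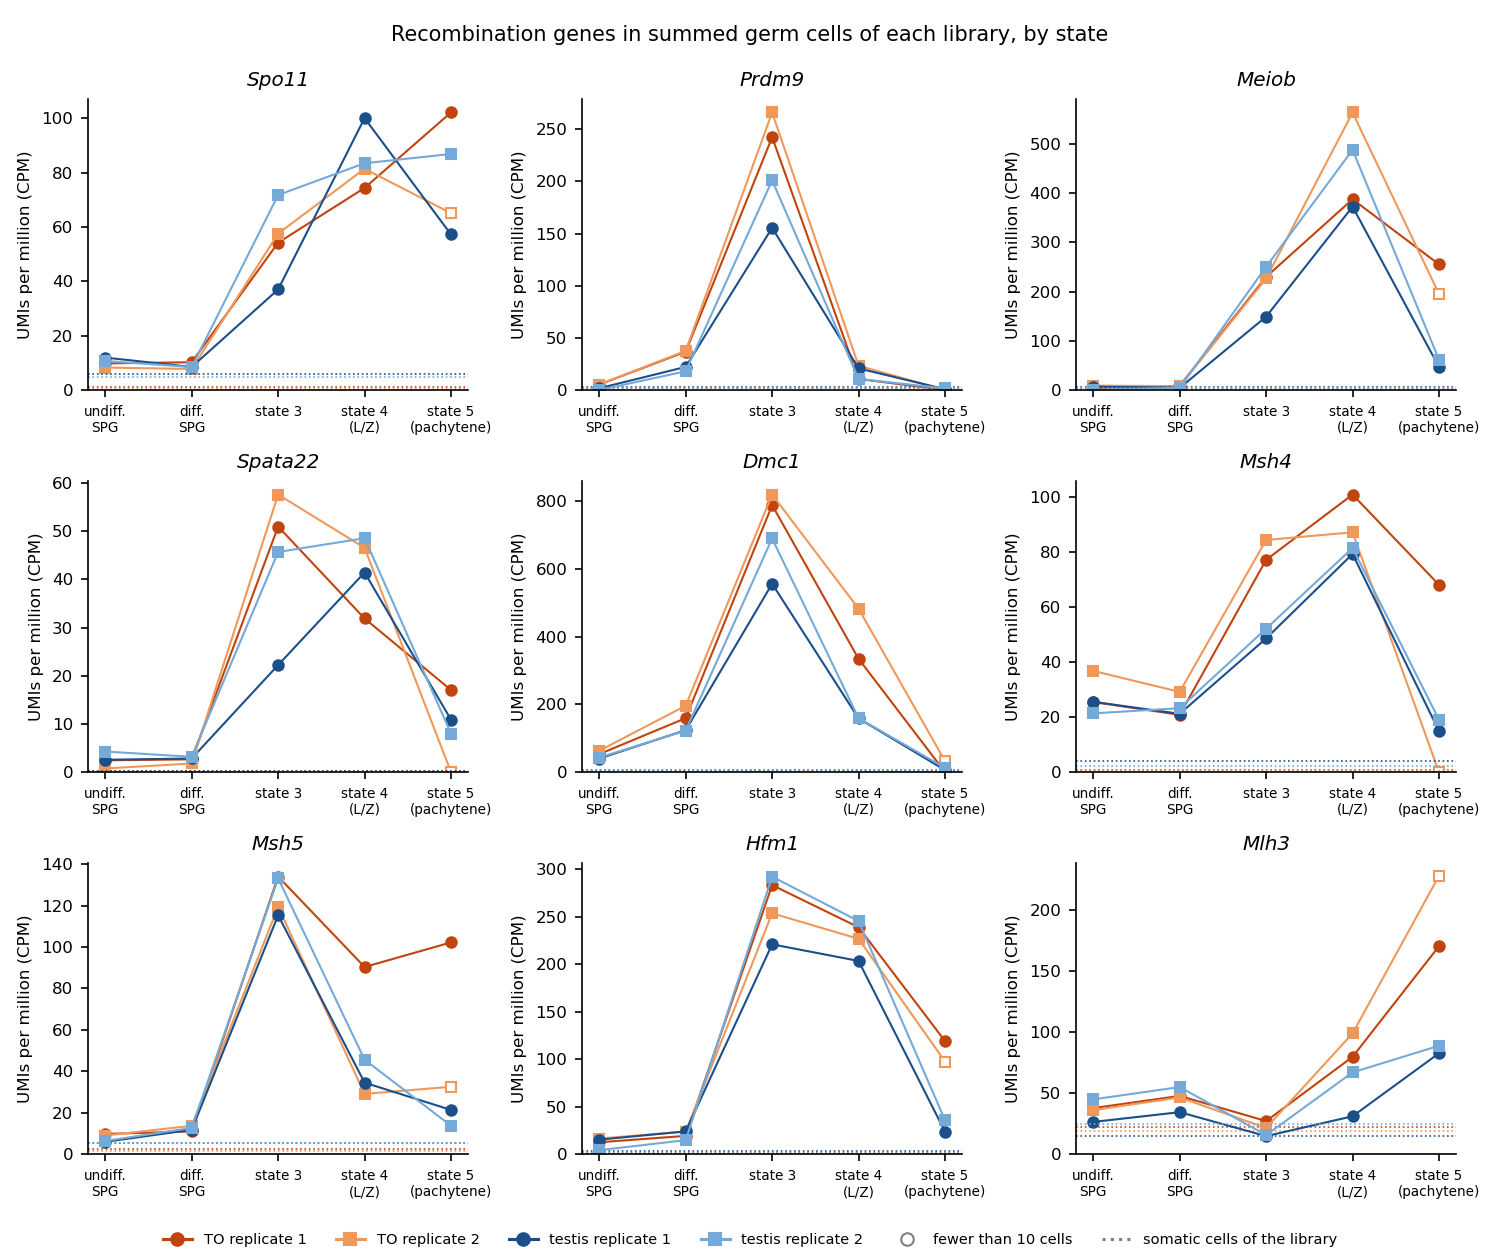
CPM of each gene (vertical axis, linear, from 0) in the summed cells of states 1 to 5 (horizontal axis), with 1 line for each of the 4 libraries, hollow symbols for sums of fewer than 10 cells and dotted lines for the somatic cells of the same library. Prdm9 and Dmc1 peaked in state 3 in all 4 libraries and Meiob in state 4, while Mlh3 was low in state 3.

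Meiob (ENSMUSG00000024155, chromosome 17, 24804289 to 24839788) and Spata22 (ENSMUSG00000112920, chromosome 11, 73329741 to 73346044) encode partners that bind exposed DNA strands. Meiob was at 230 and 227 CPM in state 3 of TOs and at 149 and 251 CPM in testes, and in state 4 at 388 and 564 CPM in TOs and at 373 and 488 CPM in testes. Spata22 was at 51.0 and 57.6 CPM in state 3 of TOs against 22.2 and 45.7 CPM in testes, and at 31.9 and 46.6 against 41.4 and 48.5 CPM in state 4. Meiob overlapped between the groups in both states, whereas Spata22 was above both testis libraries in state 3 only. The study counts Meiob among its spermatocyte markers, but here it did not take part in naming the cells. Spata22 differed by 0.66 ± 0.336 in state 3 (edgeR adjusted p = 0.222), and without testis replicate 2, which held the higher testis level, by 1.24, which passed the thresholds.

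Dmc1 (ENSMUSG00000022429, chromosome 15, 79561497 to 79605109), the meiotic recombinase, was at 789 and 820 CPM in state 3 of TOs and at 556.5 and 690.4 CPM in testes. In state 4 it was at 335 and 483 CPM in TOs and at 159 and 159 CPM in testes. Both TO libraries were above both testis libraries in each state, and the gap was wider in state 4. The log2 fold change was 0.32 ± 0.207 in state 3 (edgeR adjusted p = 0.350) and 1.30 ± 0.283 in state 4 (edgeR adjusted p = 0.0269), past 2-fold but short of the adjusted p of 0.01 used for calls. Without testis replicate 1 the state 4 difference of 1.36 passed.

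Msh4 (ENSMUSG00000005493, chromosome 3, 153857149 to 153906138) and Msh5 (ENSMUSG00000007035, chromosome 17, 35028605 to 35046745) encode the partners of a clamp on crossover intermediates. Msh4 was at 77.3 and 84.5 CPM in state 3 of TOs against 48.7 and 52.2 CPM in testes, and at 101 and 87.3 against 79.4 and 81.6 CPM in state 4. Msh5 was at 134 and 119 CPM in state 3 of TOs against 115 and 133 CPM in testes, and at 90.3 and 29.1 against 34.5 and 45.6 CPM in state 4, where the TO values rest on 17 and 5 UMIs. Msh4 was above both testis libraries in each state, by 0.64 ± 0.219 in state 3 (edgeR adjusted p = 0.0775), and Msh5 overlapped in both. In state 4 the nearest values for Msh4 were 87.3 CPM in TO replicate 2, from 19 cells, and 81.6 CPM in testis replicate 2. Hfm1 (ENSMUSG00000043410, chromosome 5, 106840192 to 106926321), a helicase of crossover formation, was at 284 and 254 CPM in state 3 of TOs against 221 and 292 CPM, and at 239 and 227 against 204 and 246 CPM in state 4. Its log2 fold changes were 0.01 ± 0.194 and -0.02 ± 0.261, the closest to 0 of the genes tested in each of these states.

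Mlh3 (ENSMUSG00000021245, chromosome 12, 85234520 to 85270599) encodes a subunit of the nuclease that resolves crossovers. In state 3 it was at 27.1 and 21.5 CPM in TOs and at 14.8 and 15.7 CPM in testes, where somatic cells of TOs held 22.4 and 19.2 CPM and somatic cells of testes 14.5 and 24.9 CPM. In state 4 it was at 79.7 and 98.9 CPM in TOs and at 31.1 and 67.0 CPM in testes, above the somatic level in every library. The state 4 difference was 0.69 ± 0.433 (edgeR adjusted p = 0.438), and Mlh3 is the only one of the 9 genes whose somatic level exceeded 10 CPM in every library.

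With 0 of 9 genes called, no recombination gene differed between TOs and testes in state 3 at an adjusted p under 0.01 and a change over 2-fold, where 14.4% of 9672 genes were called, 13.6% of all genes tested lower and 0.713% higher in TOs. By order alone, 5 of the 9 genes (Prdm9, Dmc1, Spata22, Msh4 and Mlh3) had both TO libraries above both testis libraries, against 28.9% of all genes tested, and 0 had both below, against 31.4%. In state 4, 0 of 8 tested genes were called against 1.37% of 5265 genes, 0.038% higher and 1.33% lower in TOs, and Prdm9 was too low to be tested. There 3 genes (Dmc1, Msh4 and Mlh3) had both TO libraries above, against 25.4% of genes, and Spo11 had both below, against 26.7%. For Msh4 and Spo11 the TO replicate 2 value, from 19 cells, lay close to that of testis replicate 2. The median log2 fold change of the recombination genes was 0.317 in state 3 and 0.123 in state 4, and of all genes -0.029 and -0.035. At an unadjusted p under 0.05, edgeR picked Prdm9 and Msh4 in state 3 and Dmc1 in state 4, and DESeq2 called 0 in either state.

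Summing states 3 and 4, as the leptotene and zygotene spermatocytes of the design, gave 0 of 9 genes called against 14.3% of 10913 genes, 1.08% higher and 13.2% lower in TOs. Both TO libraries were above both testis libraries in 5 of 9 (Prdm9, Dmc1, Spata22, Msh4 and Msh5), against 29.9% of genes, and below in 0, against 32.6%. Prdm9 was nearest, at a log2 fold change of 1.10 ± 0.255 (edgeR adjusted p = 0.0118), followed by Dmc1 at 0.84 ± 0.247 (adjusted p = 0.0372). The other 7 genes lay between -0.24 and 0.50. This sum mixes states in unequal parts, since state 4 made up 18.5% and 6.11% of its cells in TOs and 23.4% and 51.7% in testes, and Prdm9, which is low in state 4, differed less in state 3 alone. Prdm9 passed the thresholds under 8 of 16 alternative settings, with differences of 1.09 to 1.58, and Dmc1 under 3 of 16. These 2 were the genes with an unadjusted edgeR p under 0.05, and DESeq2 called 1, Prdm9. Mlh3 passed as lower in TOs (-1.13) where TO and testis germ cells were clustered together.

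**Figure D2:**
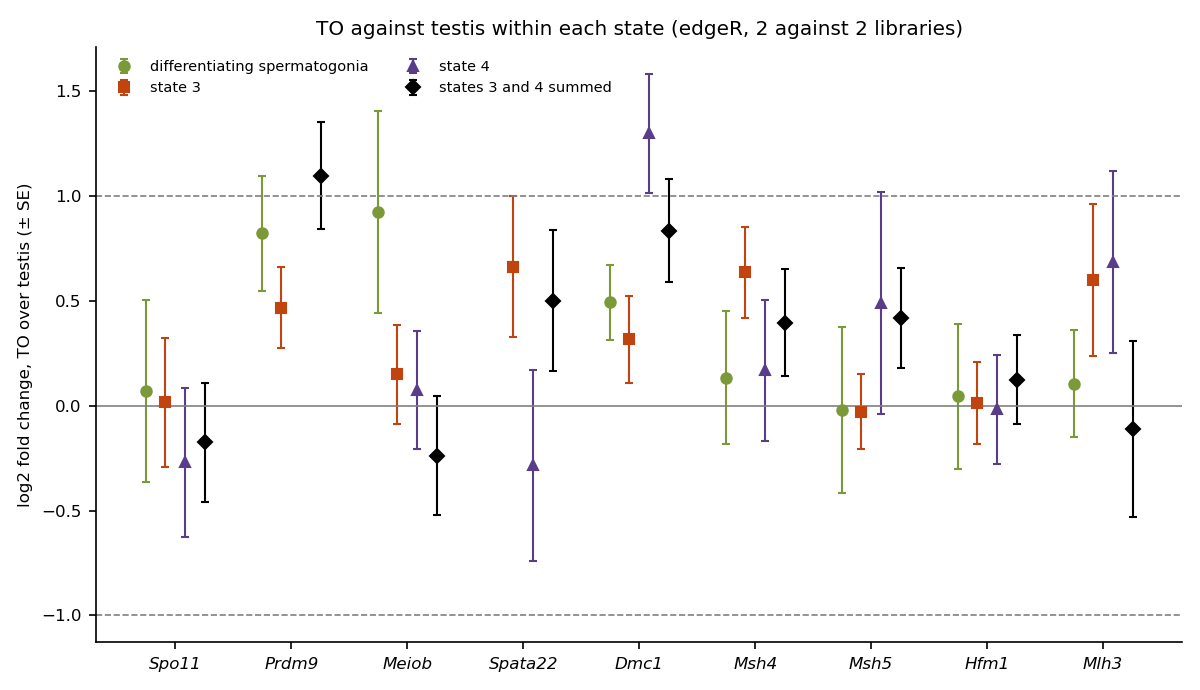
Log2 fold change of TO over testis (vertical axis, ± SE, edgeR, 2 against 2 libraries) for each gene (horizontal axis) in differentiating spermatogonia, state 3, state 4 and states 3 and 4 summed, with dashed lines at a 2-fold difference. Dmc1 in state 4 (1.30) and Prdm9 in the summed states (1.10) lie past the upper line and neither reached an adjusted p of 0.01.

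The order in which the genes were used was also compared. From differentiating spermatogonia to state 3, 8 of the 9 genes stood higher in both groups and Mlh3 stood lower. The log2 step was 2.91 ± 0.255 in TOs and 2.57 ± 0.320 in testes for Spo11, 3.08 ± 0.146 and 3.09 ± 0.197 for Prdm9, and 5.07 ± 0.194 and 5.44 ± 0.263 for Meiob. It was 2.50 and 2.35 for Dmc1, 4.80 and 3.36 for Spata22, 2.01 and 1.23 for Msh4, 3.69 and 3.36 for Msh5, and 3.97 and 3.60 for Hfm1, while for Mlh3 it was -0.66 and -1.45. These steps are given as descriptions, because the states were drawn from the same cells. Only the difference between the steps of TOs and testes was tested, in edgeR with library as a block, and 0 of 9 genes passed against 1.81% of 12115 genes, with Msh4 and Mlh3 at an unadjusted p under 0.05. Spata22 showed the largest difference (1.44 ± 0.754, edgeR adjusted p = 0.257).

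From state 3 to state 4, the log2 step of Prdm9 was -4.04 in TOs and -3.90 in testes, and that of Msh5 -1.21 and -1.69. Meiob stood higher by 0.93 and 1.02, and Mlh3 by 1.77 and 1.62. Hfm1 (-0.33 and -0.29), Spo11 (0.35 and 0.58) and Msh4 (0.09 and 0.57) moved by less than 1 in both groups, and Spata22 stood lower in TOs (-0.60) and higher in testes (0.25), each within 2 SE of 0. The step of Dmc1 was -1.11 ± 0.184 in TOs and -2.09 ± 0.184 in testes. That difference of 0.98 ± 0.265 was the largest of the 9 and did not pass (edgeR adjusted p = 0.0906, from 0.0286 to 0.795 over 10 alternative settings). In all, 0 of 9 genes were called against 0.214% of 10294 genes, and Dmc1 was the 1 gene with an unadjusted p under 0.05.

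**Figure D3:**
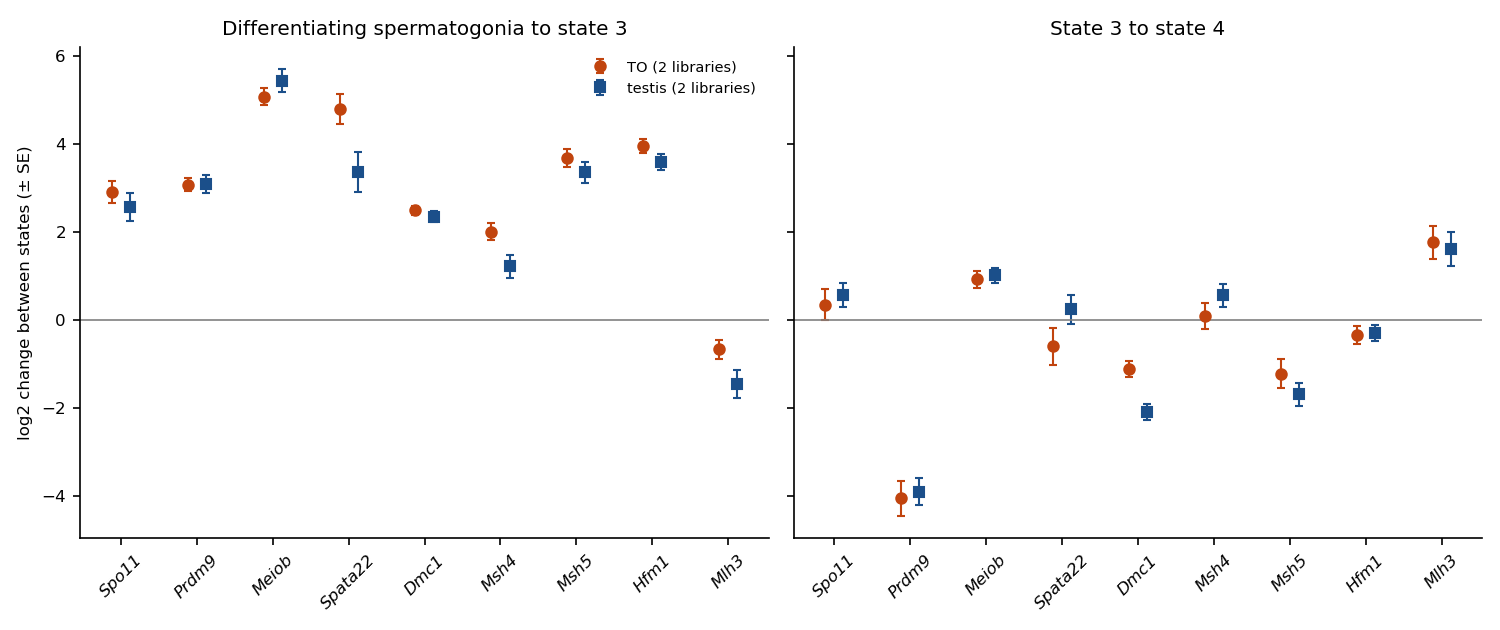
Log2 change of each gene between states (vertical axis, ± SE from edgeR) in TOs and in testes, from differentiating spermatogonia to state 3 (left) and from state 3 to state 4 (right). The steps of Prdm9 are 3.08 and 3.09 and then -4.04 and -3.90 in TOs and testes, and the second step of Dmc1 is -1.11 in TOs and -2.09 in testes.

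Compared over states 1 to 5, Prdm9, Dmc1, Msh5 and Hfm1 were highest in state 3 in all 4 libraries, and Meiob and Msh4 in state 4 in all 4 libraries. Spata22 was highest in state 3 in both TO libraries and in state 4 in both testis libraries. Spo11 and Mlh3 were highest in state 4 or 5 in each library. State 5 of TO replicate 2 held 8 cells and was left out of this ranking.

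Pachytene-like TO cells were few, 27 and 8, against 470 and 595 in testes, so their values are given without a test. The testis counts depend on the score limit for naming, since the largest unnamed testis cluster scored highest for pachytene markers. Mlh3 was at 170 CPM in TO replicate 1 (10 UMIs, exact Poisson 95% interval 81.7 to 313) and at 228 CPM in TO replicate 2 (7 UMIs, 91.6 to 469.5), against 82.7 and 88.8 CPM in testes. Meiob was at 255.5 and 195 CPM in TOs on 15 and 6 UMIs and at 46.8 and 61.7 CPM in testes. Prdm9 had no UMI in either TO library, which allows up to 51.1 and 97.7 CPM, and was at 0.807 and 1.53 CPM in testes. These intervals cover counting error only. The 8 pachytene markers summed to 2231 CPM in these cells of TO replicate 1, 8986 CPM in TO replicate 2 and 9365 and 9530 CPM in testes, while the 6 Sertoli markers summed to 954 and 65.1 CPM in TOs, so the TO replicate 1 cells stood apart from the other libraries in their markers. Other ways of staging left enough TO cells for a fit. With joint clusters (30 and 10 TO cells) 0 of 6 genes tested were called against 0% of 7099 genes in edgeR (1503 at an unadjusted p under 0.05), with the highest marker score (27 and 13) 0 of 7 against 8.94% of 11405, and without doublet removal (20 and 17) 0 of 8 against 0% of 8494 (1180 at an unadjusted p under 0.05). The median log2 fold change of the genes tested was 1.875, -0.741 and 0.706 in turn, beside -0.27, -0.738 and -0.067 for all genes. With the 8 cells of TO replicate 2 let in, 0 of 8 were called against 0.667% of 9442 genes. For the step from states 3 and 4 to pachytene, TOs against testes, 0 of 9 genes were called in edgeR with joint clusters (0.844% of 12674 genes), the marker score (1.47% of 13514) or no doublet removal (1.47% of 12358). At an unadjusted p under 0.05 stood Meiob with joint clusters (2.09 ± 0.838), Spo11 and Dmc1 with the marker score, and Meiob without doublet removal (1.20 ± 0.583), while with the marker score Meiob was at -1.64 ± 0.986.

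Beyond pachytene, TOs held 0 and 2 diplotene-like cells, 0 and 1 round spermatid-like cells and no elongating spermatid-like cells, against 374 and 2869 of the last in testes. These counts depend on the staging. Joint clusters put 9 and 17 TO cells in diplotene, and the largest joint cluster named for elongating spermatids held 16 and 11, beside 72 and 1769 testis cells. By the highest marker score 104 and 71 TO cells were diplotene-like, of which the state profiles placed 33 and 19 in undifferentiated and 48 and 30 in differentiating spermatogonia, and 0 and 1 in diplotene. In those cells Prdm9 (3.36 ± 0.595, edgeR adjusted p = 0.003) and Dmc1 (2.63 ± 0.376, edgeR adjusted p = 0.00173) were higher and Spo11 (-2.68 ± 0.491, edgeR adjusted p = 0.00335) was lower in TOs. These were 3 calls of 9 against 44.9% of 15639 genes, in a comparison of cells that the state profiles placed in different states. The text that follows uses the state profiles. Spo11 and Msh4 also had testis UMIs in states 6 to 8, which held most of all testis germ cell UMIs. In testis replicate 1, states 6, 7 and 8 held 5527360, 15116268 and 2275139 of 34012929 germ cell UMIs. In testis replicate 2 they held 4137381, 6582462 and 17020009 of 37677832. The shares of both genes there were below these states' part of all germ cell UMIs. States 6 to 8 held 58.8% and 38.4% of the germ cell UMIs of Spo11 and 58.0% and 55.4% of those of Msh4 in testis replicates 1 and 2. In CPM, Spo11 was at 35.5 and 40.6 in state 6, 19.5 and 15.3 in round and 5.27 and 4.58 in elongating spermatid-like cells, the last of these close to the level in testis somatic cells. Msh4 was at 3.44 and 5.32 CPM in state 6, near its somatic level of 4.05 and 2.17 CPM, at 13.0 and 15.04 CPM in round and at 31.2 and 9.40 CPM in elongating spermatid-like cells. For Prdm9 and Dmc1, in contrast, states 6 to 8 held 3.76% to 12.6% of the testis germ cell UMIs. In TOs, 56.3% and 86.3% of the Spo11 UMIs and 45.9% and 70.6% of the Msh4 UMIs came from states 3 and 4. Those states held 1405024 of 7089375 germ cell UMIs in TO replicate 1 and 2776342 of 5920839 in TO replicate 2.

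**Figure D4:**
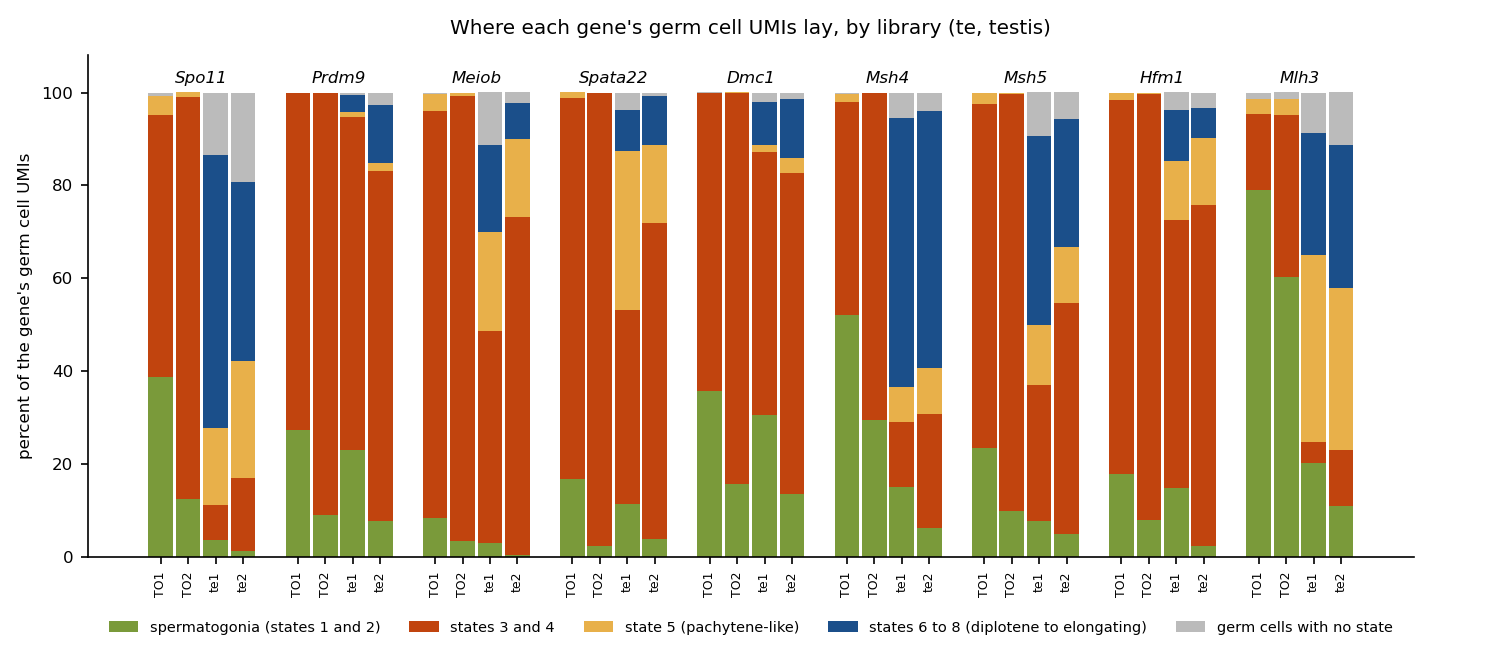
Share of each gene's germ cell UMIs (vertical axis, percent) by group of states, with 1 stacked bar for each library (TO1, TO2, te1 and te2 for TO and testis replicates 1 and 2). States 6 to 8 are absent from the TO bars and hold 58.0% and 55.4% of the testis UMIs of Msh4.

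Summed over all germ cells, which mixes how many cells of each state there were with the level in each, 8 of the 9 genes had both TO libraries above both testis libraries, against 49.3% of genes, and 0 had both below, against 38.6%. In such sums fewer cells of a state and less RNA per cell cannot be told apart. Prdm9 was at 57.7 and 129.5 CPM in TOs and at 6.26 and 5.81 CPM in testes, a log2 fold change of 3.12 ± 0.511 (edgeR adjusted p = 0.00237). Dmc1 was at 225 and 445 CPM against 29.7 and 26.6 CPM, a change of 2.74 ± 0.483 (edgeR adjusted p = 0.00309). These 2 were called, against 49.6% of 20368 genes, 16.7% higher and 32.8% lower, and both calls were lost without testis replicate 1 or without testis replicate 2. Spo11 was the exception in order, at 20.03 and 32.1 CPM in TOs and 25.2 and 24.0 CPM in testes, with a change of -0.77 ± 0.384 (edgeR adjusted p = 0.113). The fitted changes are on the TMM scale, which for this sum lies 0.882 below the log2 ratio of CPM, so that Spo11 overlapped in CPM and was negative in the fit. On the same scale the median change of all genes was -0.389. The other 6 genes had changes of 0.32 to 1.92.

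In spermatogonia most of the genes were low. In differentiating spermatogonia-like cells Dmc1 was at 159.5 and 196 CPM in TOs and at 124 and 123 CPM in testes, Prdm9 at 36.8 and 37.6 against 22.2 and 18.0 CPM, and Mlh3 at 47.7 and 46.5 against 34.4 and 55.0 CPM. Meiob, Spata22, Spo11 and Msh5 were between 1.79 and 13.7 CPM in every library. Prdm9, Dmc1 and Meiob had both TO libraries above both testis libraries, against 30.8% of genes, and 0 had both below, against 29.7%. Of 8 genes tested 0 were called, against 13.9% of 11915 genes, 1.07% higher and 12.9% lower, with Prdm9 nearest (0.82 ± 0.275, edgeR adjusted p = 0.0606). In undifferentiated spermatogonia-like cells 0 of 6 were called, against 8.89% of 11305 genes, 0.602% higher and 8.29% lower. At an unadjusted edgeR p under 0.05 stood Prdm9 and Dmc1 in differentiating and 0 genes in undifferentiated spermatogonia-like cells, and DESeq2 called 0 in both.

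Single cells were then asked how many of the 4 steps they showed, counting a step when a UMI of any of its genes was present: breaks (Spo11 or Prdm9), strand exchange (Meiob, Spata22 or Dmc1), crossover intermediates (Msh4, Msh5 or Hfm1) and resolution (Mlh3). Each cell of states 3 and 4 was thinned to 1500 UMIs, as the exact mean over all ways of drawing them, which left out 11 of 211 cells of TO replicate 1 and no cell of the other libraries. Strand exchange was then seen in 70.3% and 72.9% of TO cells and 60.7% and 68.7% of testis cells, against 0.872% to 1.87% of somatic cells. Breaks were seen in 29.4% and 34.5% of TO cells and 22.1% and 22.9% of testis cells. Crossover intermediates were seen in 48.1% and 44.7% of TO cells and 40.9% and 45.2% of testis cells. The TO libraries were above both testis libraries for breaks and strand exchange and overlapped them for crossover intermediates. The genes of a step differed. Prdm9 was seen in 23.8% and 29.2% of TO cells and 15.8% and 12.9% of testis cells. Spo11 was seen in 7.39% and 7.32% against 7.58% and 11.4%, with both TO libraries below. Dmc1 was at 59.7% and 64.2% against 47.3% and 40.8%, while Meiob and Spata22 overlapped. Within a state the order of the libraries for these steps differed. In state 3 breaks were seen in 33.31% and 35.98% of TO cells and 23.68% and 32.2% of testis cells. In state 4 they were seen in 8.859% and 12.01% against 16.96% and 14.23%, with the TO libraries below. These state 4 shares rest on 32 of 39 cells of TO replicate 1 and 19 of TO replicate 2, so few cells carry this order. Strand exchange overlapped in both states, at 72.8% and 72.9% against 62.5% and 73.8% in state 3 and 57.1% and 73.6% against 54.9% and 63.9% in state 4. Crossover intermediates were at 48.6% and 45.0% against 41.4% and 48.0% in state 3 and at 45.96% and 40.05% against 39.23% and 42.55% in state 4, again with overlap. Resolution was seen in 5.43% and 3.75% of TO cells and 2.75% and 5.49% of testis cells. Somatic cells were at 3.624% and 2.986% in TOs and 2.174% and 3.895% in testes, below the share of states 3 and 4 in each library. In state 3 alone the shares were 3.657% and 2.995% in TOs and 2.4% and 2.293% in testes, close to or below the somatic ones. In state 4 they were 14.71% and 15.41% in TOs, on 32 and 19 cells, and 3.891% and 8.486% in testes.

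As means over draws, all 4 steps were seen in 0.284% and 0.358% of 200 and 311 TO cells. In testes they were seen in 0.102% and 0.374% of 325 and 364 cells. A single random draw gave 0% and 0.322% in TOs and 0% and 0.275% in testes, so very few cells carry this comparison. The mean difference of 0.0836 percentage points was smaller than the spread between the testis libraries (SD 0.193; exact two-sided permutation test, p = 1), and 2 against 2 libraries cannot go below 0.333. Without thinning the shares were 8.53% and 12.2% in TOs and 2.15% and 6.59% in testes (exact p = 0.333), at median depths of 6185 and 8195 against 3167 and 4180 UMIs per cell. At 3000 UMIs they were 1.63% and 1.83% in TOs and 1.38% and 2.35% in testes, again with overlap.

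A wider list of 47 recombination genes, of which 46 were matched, was counted by role. With states 3 and 4 summed, 0 of 45 tested were called, against 14.3% of all genes, at a median log2 fold change of 0.353, and 0 were called in state 3 or state 4 alone, against 14.4% and 1.37%. In state 3 the median was 0.062 for 6 break formation genes, 0.169 for 4 break placement genes, 0.372 for 3 genes of single-strand DNA binding, 0.205 for 14 strand exchange genes, 0.212 for 7 genes of crossover intermediates and -0.045 for 11 of crossover resolution. In differentiating spermatogonia 1 of 44 was called, against 13.9% of all genes. It was Rnf212b, a crossover factor, at 22.4 and 31.0 CPM in TOs and 6.13 and 7.40 CPM in testes (1.96 ± 0.398, edgeR adjusted p = 0.00452), named here after its value was seen. Over all germ cells 23 of 46 were called higher and 5 lower in TOs, against 16.7% and 32.8% of all genes. The 10 largest changes among them were Rpa3 (2.80) of strand binding, Gm960 (2.62), Mei4 (2.32) and Mei1 (2.31) of break formation, Tex11 (2.59) of crossover intermediates, Zcwpw1 (2.51) and Hells (2.48) of break placement, BC055324 (2.47) of strand exchange, Pms2 (2.33) of resolution, and, lower in TOs, Psmc3ip (-2.68), a partner of Dmc1 in strand exchange. Psmc3ip was at 71.5 and 98.7 CPM in state 3 of TOs and at 143 and 181 CPM in testes (-0.95 ± 0.226, edgeR adjusted p = 0.0158), beside 10.2 and 8.08 CPM in TO somatic cells and 96.5 and 78.1 CPM in testis somatic cells.

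The genes most like the 9 were sought by the correlation of log2(CPM + 1) with the mean standardised profile of the 9 genes over 25 sums of library and germ state, which share libraries and states. They were Dnajc3 (Pearson r = 0.968), Gapvd1 (0.967), Iqcb1 (0.965), Garnl3 (0.958) and H2-D1 (0.958). The 9 genes' own correlations with that mean ran from 0.56 for Mlh3 to 0.99 for Hfm1. Iqcb1, for example, was at 711 and 722 CPM in state 3 of TOs and at 349 and 559 CPM in testes, against 122 and 154 and 86.8 and 107.8 CPM in differentiating spermatogonia.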

How the data were processed

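Single-cell libraries of 2 testicular organoid (TO) and 2 testis samples were analysed. The authors aligned reads to mm10 and counted UMIs per gene and cell with Cell Ranger 7.1.0, and deposited the filtered matrices of raw counts, 74988295 to 119966959 UMIs in 11826 to 14643 barcodes a library.

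Comparison with simulated doublets marked 9.46% to 11.7% of barcodes, which were removed. Of the rest, a cell needed a gene count between 1000 and 5000, a UMI total up to 20000 and a mitochondrial share up to 10%. Libraries were joined by Harmony written in Python 3.11.15 and clustered by leidenalg 0.10.2. Testis germ cells were clustered into states without the 9 genes, clusters whose marker score was under 0.6 stayed unnamed (a limit set after seeing the data), and every germ cell was matched to the state profiles.

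Raw UMIs were summed per library and state and tested over all genes with edgeR 4.0.16 (R 4.3.3; quasi-likelihood, TMM, filterByExpr; Benjamini-Hochberg adjusted p under 0.01 and a log2 fold change beyond 1), or with DESeq2 1.42.0 as an alternative. A state was tested where each library held 10 cells or more. States 3 and 4 alone, the steps between states 2, 3 and 4, and the mean over thinning draws were chosen after seeing the data, since the planned step to pachytene had too few TO cells in this staging. The fits were tested on simulated data. The 9 genes and all lists were chosen with earlier results of these data known. Named pathway genes were the called ones, at most 10 a fit by size of change among those of at least 50 CPM in a library, and the 5 genes with the most similar profile were taken from those of at least 50 CPM in any sum. Alternatives covered normalization, filters, tool, replicates, free RNA, depth, doublets, integration and staging. Intervals cover counting error only.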

Additional observations from a re-analysis of the deposited data

Results flagged for a closer look

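From state 4 to state 5 the CPM of Msh5 went up in both TO libraries (log2 ratios of 0.178 and 0.163) and down in both testis libraries (-0.692 and -1.73), a mean difference of 1.383, which was picked out because every library of a group moved the same way and the groups opposite ways. The difference was not tested, and the TO values rest on 17 and 6 UMIs in replicate 1 and on 5 and 1 in replicate 2. State 5 of TOs held 27 and 8 cells. Their 8 pachytene markers summed to 2231 and 8986 CPM, against 9365 and 9530 CPM in testes, so state 5 of TO replicate 1 is not a like state.

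Germ cells of the testes that matched best to an unnamed cluster entered no comparison by state, although the sum over all germ cells held them. In them Spo11 was at 28.15 CPM in testis replicate 1 (115 UMIs) and 42.63 CPM in testis replicate 2 (175 UMIs). Both lay above the 5.89 and 4.71 CPM of the somatic cells of the same libraries. The 8 pachytene markers summed to 9056 and 8215 CPM in the unnamed cells, beside 9365 and 9530 CPM in state 5. The largest unnamed testis cluster (2601 cells) scored highest for pachytene markers (0.567), and the next (1223 cells) for diplotene and dividing markers (0.517). Both scores are under the limit of 0.6 for naming.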

How the results depend on the processing

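Of 861 values of the 9 genes under alternative settings, 834 kept their side of the thresholds, 23 passed only under an alternative, 4 passed only as reported, and 0 of the called values changed sign. In 60 values called under neither setting the sign differed. Causes were not tested except where named.

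Recombination genes called in states 3 and 4 summed (0 as reported) came to 1 with all genes that had any UMI, with DESeq2, without doublet removal or without Harmony, 2 with the highest marker score, 3 with joint clusters, and 0 to 2 leaving out 1 library (2 without testis replicate 1). Over all germ cells (2 as reported) they came to 4 with all genes and 0 to 4 leaving out 1 library. They were 0 to 1 in state 3 and 0 to 1 in state 4 leaving out 1 library, and 0 for both steps in every setting run.

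All genes called in states 3 and 4 (1563) became 2609 with all genes tested and 3727 with joint clusters. In state 3, 1389 became 2367 with all genes tested. In state 4, 72 became 692 with all genes tested, 5 with RLE scaling, 197 with DESeq2, 141 with thinned sums, 229 without upper limits, 356 without doublet removal, 6 without Harmony, and 95 to 467 leaving out 1 library. In differentiating spermatogonia 1659 became 1066 with thinned sums. In undifferentiated spermatogonia 1005 became 1643 with all genes tested, 515 with thinned sums, 2198 with the marker score, and 191 (without testis replicate 1) to 1396 leaving out 1 library. Over all germ cells 10097 became 5322 to 6951. With the somatic profile subtracted, scaled in testes only, the count was 0 in states 3 and 4 summed, in each alone and in both kinds of spermatogonia. For the step from state 3 to 4, 22 became 34 with all genes tested, 89 without upper limits, 62 without doublet removal, 50 without Harmony and 17 to 43 leaving out 1 library. For the step into state 3, 219 became 130 with RLE, 145 with all genes tested, and 26 (without TO replicate 2) to 160.

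The difference in cells with all 4 steps (0.0836 percentage points) was -0.128 at 3000 UMIs, 6.001 without thinning, where depth differed, and -0.0529 to 0.22 leaving out 1 library.

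Replicate numbers mark no shared source, and the replicate differences of TOs and testes correlated at 0.007 to 0.145. With the replicate number as a block, 1 recombination gene was called in states 3 and 4 (2167 genes), 5 over all germ cells (10875 genes), and 254 genes in state 4. With the staging as reported, the pachytene and diplotene comparisons and the step to pachytene were not tested, since TO replicate 2 had 8 and 2 such cells and TO replicate 1 had 0 diplotene-like cells. Under other staging 0 of 9 recombination genes were called for that step, against 0.844% of genes with joint clusters, 1.47% with the marker score and 1.47% without doublet removal, and 3 of 9 in diplotene with the marker score, against 44.9%. Depth limits state 4 and state 5 of TOs most, where a gene can rest on under 20 UMIs.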
